A study of Saccharomyces cerevisiae with 7 samples.

Results

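Ribosome assembly factors are the proteins that build the 2 ribosomal subunits but do not stay in them. The genes described here are the 54 S. cerevisiae genes whose symbol begins with UTP, NOP or RRP followed by a number, together with FYV7, out of 5449 S. cerevisiae genes with a named probeset on the array. All 54 genes of that description in the R64 gene table were measured, each by 1 probeset (the short probes that together read 1 transcript), and no filter on low signal was applied. RNA was taken from 7 separate cultures of a cir+ strain, NRRL Y-12632, where cir+ denotes cells that carry the native yeast plasmid, after 24 h of aerobic growth. In 4 cultures the rich medium YPD had been made with simulated asbestos mine drainage, a filtered leachate of mine tailings with more magnesium and a higher pH, and in the 3 control cultures with deionized water. All cultures came from a single inoculum grown in control medium, so the replicates are cultures of 1 strain and 1 starter, compared at 1 time. Values are log2 signals from Affymetrix Yeast Genome 2.0 arrays after the Robust Multichip Average (RMA), a procedure that corrects the background, equalizes the distributions of the arrays and combines probes into 1 value.

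In yeast, ribosome assembly starts in the nucleolus on a long precursor rRNA. The U3 snoRNP and the UTP subcomplexes assemble on the nascent precursor as the small subunit processome, in which the part that becomes the small subunit is folded and cut free. A second series of factors, among them many NOP and RRP proteins, then matures the large subunit, and the RNA exosome trims precursor ends and degrades what was cut out. Rapidly growing yeast transcribes these genes together with those of the ribosomal proteins and represses both when nutrients run out or under stress. The 54 genes were sorted by the known role of their product into the UTP-A (6 genes), UTP-B (4) and UTP-C (3) subcomplexes, the snoRNP proteins (5), other small subunit factors (15), large subunit factors (14) and exosome subunits (7). Exosome subunits also act outside the nucleolus, so the group is not strictly a nucleolar one.

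The arrays were alike in overall signal, with medians over 5498 S. cerevisiae probesets of 7.41 to 7.48, and correlated at 0.983 to 0.994 within mine drainage, 0.986 to 0.994 within control and 0.962 to 0.983 between the groups. The probesets of rRNA itself averaged 11.96 ± 0.10 (SD) on the 4 mine drainage arrays and 11.54 ± 0.12 (SD) on the 3 control arrays (two-sided exact permutation p = 0.0286). Hybridization controls, which are added to the samples, differed by 0.41 in the same direction (exact permutation p = 0.0857). The mean difference between 3' and 5' probesets of control transcripts, a sign of RNA or cDNA length, was 0.54 ± 0.15 and 0.85 ± 0.16 for mine drainage and control cultures, respectively (exact permutation p = 0.0571). ACT1, the actin gene, differed by 0.04 (adjusted p = 0.727 from limma). All 54 assembly factor probesets lay on every array above 1.52, the 95th percentile of the signals of probesets for Schizosaccharomyces pombe, a yeast not present in the cultures.

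Genes of ribosome assembly factors more often fell than rose in simulated mine drainage. Of the 54 genes, 14 fell and 2 rose at an adjusted p under 0.05 from limma, which fits each probeset and moderates its variance by that of the others, with p-values adjusted over all 5498 probesets by the Benjamini-Hochberg method. This is 25.9% lower and 3.7% higher, where over all 5498 probesets 31.6% were called, 17.1% lower and 14.5% higher. FYV7, added by name with earlier results of these data known, is among the 14 and counts in the share lower. The median log2 difference, mine drainage minus control, was -0.15 over the 54 genes and -0.03 over all probesets, and 64.8% of the 54 genes had a negative difference. In these bulk cultures, fewer cells that express a gene and less RNA per cell cannot be told apart. The study's gene-by-gene one-way ANOVA was rerun on the same values with Benjamini-Hochberg adjustment. It called 2 of the genes lower (NOP53 and RRP17) and 1 higher (RRP42), against 6.69% and 6.58% of all probesets. The larger share of lower genes was thus not seen in that rerun, where FYV7 and RRP7 just missed (adjusted p = 0.0509 each). At an unadjusted p under 0.05 and a 1.5-fold change, the rerun called 5 of the 54 lower (9.26%, against 7.02%) and 1 higher (1.85%, against 5.66%). With the 3' to 5' difference of each array as a covariate, 0 of the 54 passed in limma, but that fit called only 0.364% of all probesets lower and 0.546% higher. The median difference of the 54 genes was then -0.29, and all 16 genes called without the covariate kept their direction, but NOP1 moved from 0.60 to 0.17 and RRP15 from -0.88 to -0.56.

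**Figure D1:**
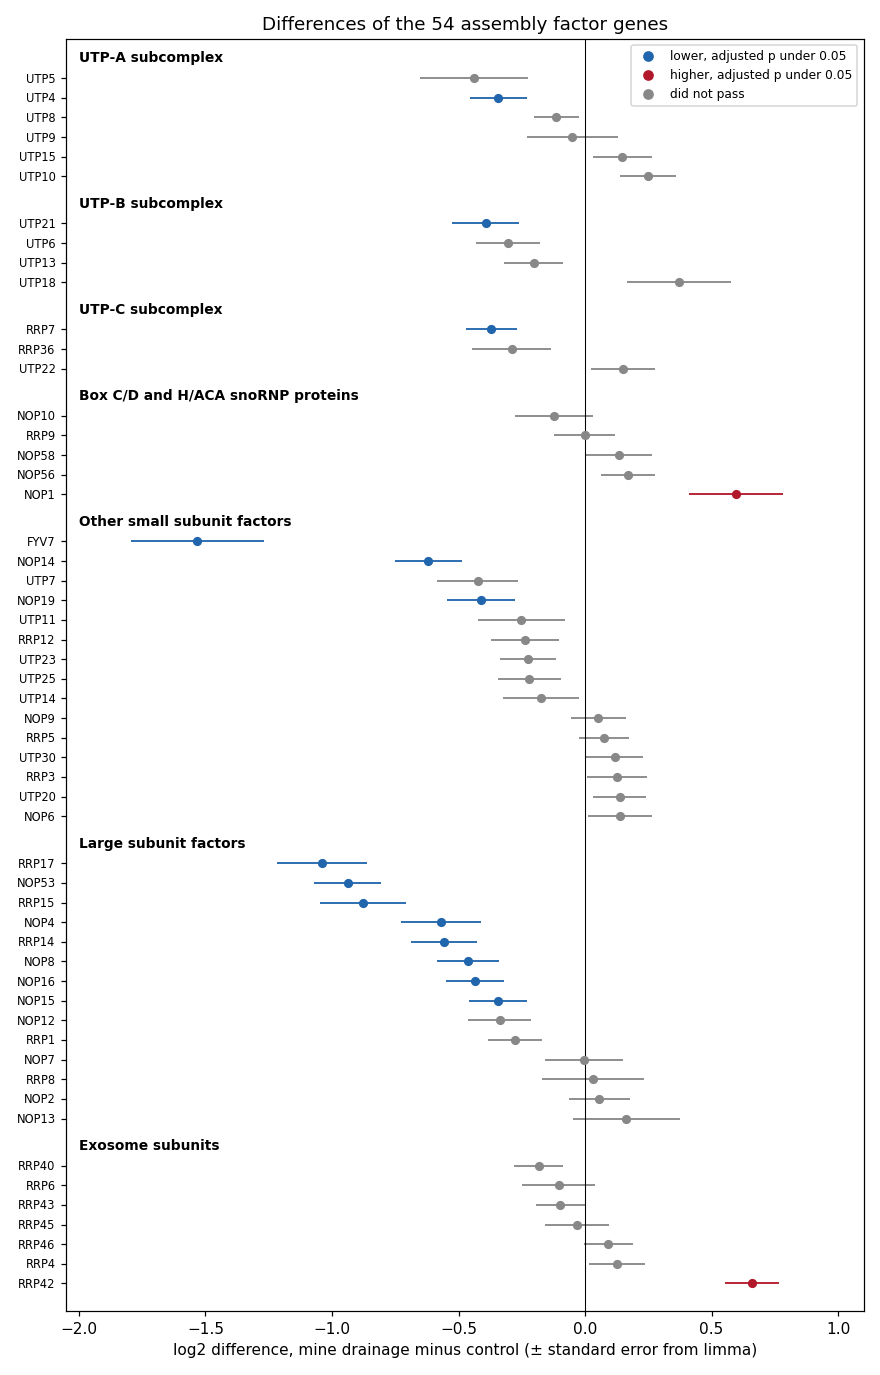
Log2 difference of each of the 54 genes, mine drainage (4 arrays) minus control (3 arrays), with the standard error from limma as a horizontal line, grouped by the role of the gene product. The 14 genes called lower are blue, the 2 called higher red and the rest grey, and the values run from -1.53 for FYV7 to 0.66 for RRP42.

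Over all mine drainage and control arrays, 18 genes (33.3%) had every mine drainage value below every control value, against 20.5% of all probesets, and 2 genes (3.7%) had every mine drainage value above, against 17.7%. Of the 18, 13 were among the genes called lower, with FYV7, the gene added by name, in both counts. The other 5 were UTP6, UTP13, UTP23, NOP12 and RRP1, whose differences of -0.20 to -0.34 did not pass (adjusted p from 0.0664 to 0.209 from limma). The single gene called lower whose groups overlapped was UTP4.

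FYV7 (YLR068W), required for maturation of the small subunit rRNA, had the widest difference of the 54 genes. It was added by name to the UTP, NOP and RRP genes, and the members were chosen with earlier results of these data known. Its rank is therefore no result about the genes of those names. Its log2 signal was 5.65, 6.15, 4.80 and 5.58 on mine drainage replicates 1 to 4, and 6.82, 7.11 and 7.30 on control replicates 1 to 3. Every mine drainage array was below every control array, and mine drainage replicate 3 was well below the other arrays of its group. The gene fell 2.89-fold, from 7.08 ± 0.24 (SD, 3 arrays) to 5.55 ± 0.56 (SD, 4 arrays), a log2 difference of -1.53 with a standard error of 0.26 (adjusted p = 0.00434 from limma). Its difference was -1.73 to -1.28 when single arrays were left out, and it was called in 15 of 17 alternative fits. The filter on dim probesets and the mean over every probeset of a gene left the values of all 54 genes unchanged. Those fits therefore add little to such tallies, here and below.

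Large subunit factors had the largest share of genes lower among the 7 classes. Of the 14 genes, 8 fell and none rose (57.1%, against 17.1% lower over all probesets). In 10 genes every mine drainage value was below every control value (71.4%, against 20.5% of all probesets). The median log2 difference was -0.39. RRP14 and RRP5 both take part in the maturation of both subunits. RRP14, which was called lower, was placed in this class, and RRP5, which was not called, among the other small subunit factors. The mean over these 14 genes was 8.37, 8.36, 7.89 and 8.15 on mine drainage replicates 1 to 4 and 8.62, 8.61 and 8.53 on control replicates 1 to 3.

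RRP17 (YDR412W), an exonuclease that acts on precursors of the large subunit, gave 8.31, 8.22, 7.62 and 7.67 on the mine drainage arrays and 8.85, 9.07 and 9.06 on the control arrays. The mine drainage cultures lay in 2 pairs, replicates 1 and 2 above replicates 3 and 4, and all 4 below control. RRP17 fell 2.05-fold (log2 difference -1.04, standard error 0.18, adjusted p = 0.00434). NOP53 (YPL146C), which brings the exosome to precursors of the large subunit, gave 7.35, 7.29, 6.82 and 7.19 against 8.08, 8.17 and 8.05 in control. Its control values differed by little and its fall of 1.92-fold (-0.94, standard error 0.13) had the smallest adjusted p of the 54 genes, 0.00254 from limma. It was called in 16 of 17 alternative fits. RRP15 (YPR143W), a constituent of early large subunit precursors, had 7.07, 7.78, 7.03 and 7.23 in mine drainage and 8.14, 8.13 and 8.20 in control. Replicate 2 stood nearer to control than the other mine drainage arrays, and the gene fell by 0.88 on the log2 scale (standard error 0.17, adjusted p = 0.00636).

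NOP4 (YPL043W), an RNA-binding protein of early precursors of the large subunit, fell by 0.57, with 8.81, 8.94, 8.23 and 8.58 in mine drainage and 9.28, 9.20 and 9.15 in control (adjusted p = 0.0235). RRP14 (YKL082C), which takes part in the maturation of both subunits, fell by 0.56, with 9.41, 9.38, 8.92 and 9.16 against 9.69, 9.76 and 9.87 (adjusted p = 0.0123). In both genes mine drainage replicate 3 was the lowest array and replicates 1 and 2 were nearest to control. NOP8 (YOL144W), of the first large subunit precursors, fell by 0.46, with 8.40, 8.18, 7.90 and 8.11 in mine drainage and 8.59, 8.68 and 8.55 in control (adjusted p = 0.0203). NOP16 (YER002W), another constituent of the large subunit precursors, fell by 0.44, with 9.43, 9.34, 9.07 and 9.13 against 9.62, 9.63 and 9.78 (adjusted p = 0.0189). NOP15 (YNL110C), which binds an internal spacer of the precursor rRNA, fell by 0.34, from 8.04 ± 0.15 to 7.69 ± 0.14 (adjusted p = 0.0444). Of 17 alternative fits, 8 called NOP15, 10 NOP16, 11 NOP4, 11 NOP8 and 12 RRP14.

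The remaining large subunit genes did not pass. NOP12, an RNA-binding protein of large subunit rRNA processing, and RRP1, a constituent of the same precursors, had differences of -0.34 (adjusted p = 0.0664) and -0.28 (adjusted p = 0.0737). NOP7 (YGR103W), the scaffold that works with Erb1 and Ytm1, had 9.62, 9.20, 8.90 and 9.20 in mine drainage and 9.30, 9.28 and 9.11 in control, with all control values inside the mine drainage range (adjusted p = 0.986). Its partner genes ERB1 and YTM1 had differences of 0.13 and 0.09, and neither passed. NOP2 and RRP8, methyltransferases of the large subunit rRNA, differed by 0.06 and 0.03, and NOP13, an RNA-binding protein, by 0.16.

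**Figure D2:**
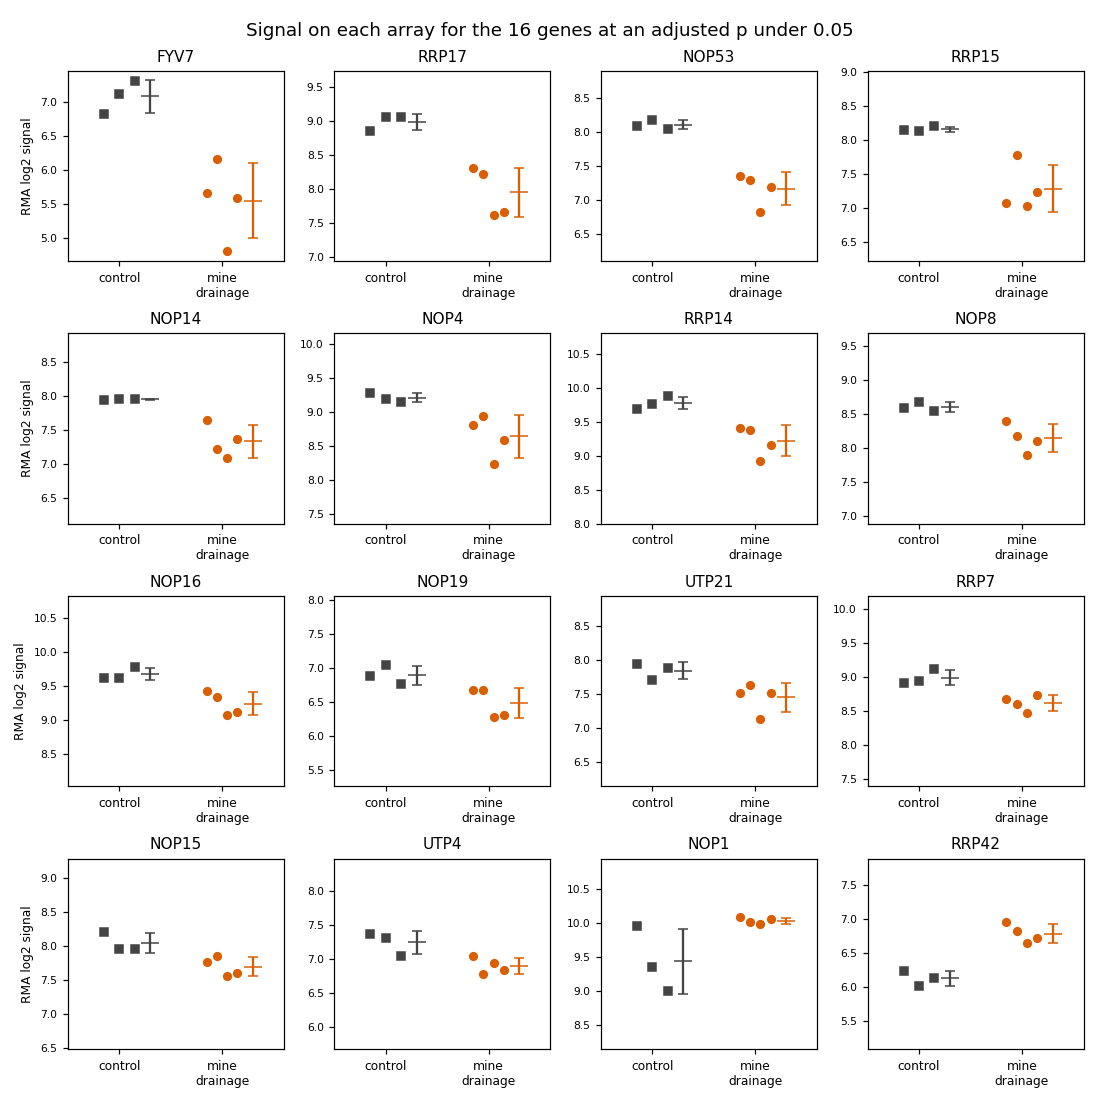
RMA log2 signal of the 16 genes at an adjusted p under 0.05 from limma, on each of the 3 control arrays (squares) and 4 mine drainage arrays (circles), with the mean and SD of each group beside the points. Every panel spans an equal range of log2 units, and points run from replicate 1 at the left of a group. All mine drainage points lie below control in 13 genes and above it in NOP1 and RRP42, while UTP4 overlaps.

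Outside the large subunit class, 3 of 15 other small subunit factors fell and none rose (20%, near the 17.1% over all probesets). One of them was FYV7, the gene added by name. NOP14 (YDL148C), which works with Noc4 in the small subunit processome, had 7.65, 7.22, 7.08 and 7.36 in mine drainage and nearly equal control values of 7.94, 7.94 and 7.95. It fell 1.54-fold (-0.62, standard error 0.13, adjusted p = 0.00887), while NOC4 differed by -0.01 (adjusted p = 0.96). NOP19 (YGR251W), which is needed for the processome to take up later factors, fell by 0.41, with 6.67, 6.67, 6.27 and 6.30 against 6.88, 7.04 and 6.76 (adjusted p = 0.0436), and 8 of 17 alternative fits called it.

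The other 12 small subunit genes had differences between -0.42 and 0.14. UTP7, a WD-repeat protein of the processome, had -0.42 but one mine drainage value, 9.37, among the control values of 9.26 to 9.46 (adjusted p = 0.0699). UTP11, RRP12, UTP23, UTP25 and UTP14 had differences of -0.25 to -0.17. NOP9 (YJL010C), an RNA-binding protein of small subunit maturation, differed by 0.05 with control values of 7.65, 7.65 and 7.69 and mine drainage values of 7.95, 7.65, 7.58 and 7.67. RRP5, RRP3, UTP20, NOP6 and UTP30 had differences of 0.07 to 0.14. RRP5 takes part in the maturation of both subunits, RRP3 is an RNA helicase and UTP20 a very large scaffold protein. UTP30 (YKR060W) had the dimmest probeset of the 54, at 5.99, 6.03, 5.66 and 5.82 in mine drainage and 5.79, 5.82 and 5.65 in control, and its groups overlapped.

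In the UTP-A subcomplex, which binds the precursor rRNA first, 1 of 6 genes fell and none rose (16.7% lower, near the 17.1% over all probesets). UTP4 (YDR324C) had 7.04, 6.78, 6.94 and 6.84 in mine drainage and 7.37, 7.31 and 7.04 in control. Mine drainage replicate 1 and control replicate 3 were at the same level, and the fall of 0.34 was close to the threshold (adjusted p = 0.0446), called in 6 of 17 alternative fits. UTP5 (YDR398W) had a wider difference of -0.44, with 7.81, 7.05, 6.73 and 7.10 in mine drainage and 7.67, 7.66 and 7.49 in control, so that mine drainage replicate 1 lay above all controls and the other 3 below (adjusted p = 0.141). UTP9 (YHR196W) spread as far within the groups as between them, with 8.02, 8.03, 7.47 and 7.77 against 8.09, 8.04 and 7.49 (adjusted p = 0.852). UTP8, UTP15 and UTP10 differed by -0.11, 0.15 and 0.25. NAN1, the remaining subunit, whose symbol does not follow the rule, differed by 0.11 (adjusted p = 0.423).

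In the UTP-B subcomplex, which joins with the U3 snoRNP, 1 of 4 genes fell and none rose, too few to set apart from the 17.1% lower over all probesets. UTP21 (YLR409C) fell by 0.39, with 7.51, 7.63, 7.13 and 7.52 in mine drainage and 7.94, 7.70 and 7.88 in control (adjusted p = 0.0457), and 6 of 17 alternative fits called it. UTP6 and UTP13 (YLR222C) had -0.30 and -0.20. For UTP13 the control values of 8.65, 8.67 and 8.70 lay just above the 3 highest mine drainage values of 8.60, 8.51 and 8.60, and replicate 3 was at 8.18 (adjusted p = 0.209). UTP18 had a positive difference of 0.37, with control values spread from 6.31 to 7.18 (adjusted p = 0.189). PWP2 and DIP2, the other subunits, differed by 0.12 and -0.07, and neither passed.

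The UTP-C subcomplex joins the protein kinase CK2 to assembly factors, and 1 of its 3 genes fell, too few to set apart from the same 17.1%. RRP7 (YCL031C) fell by 0.37, with 8.68, 8.60, 8.47 and 8.74 in mine drainage and 8.92, 8.94 and 9.12 in control (adjusted p = 0.0233), and 11 of 17 alternative fits called it. Its binding partner gene UTP22 (YGR090W) had 7.66, 7.14, 7.35 and 7.31 against 7.19, 7.29 and 7.16, a difference of 0.15 (adjusted p = 0.382), and RRP36 differed by -0.29 (adjusted p = 0.179). The 4 genes of CK2 went both ways. CKA2, a catalytic subunit, rose by 0.47 and CKB2, a regulatory one, by 0.33, CKB1 fell by 0.44, and CKA1 had a difference of 0.00 (adjusted p = 0.023, 0.0268, 0.0157 and 0.998).

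Among the snoRNP proteins 1 of 5 genes rose and none fell, where 14.5% of all probesets were higher and 17.1% lower. NOP1 (YDL014W), the rRNA methyltransferase fibrillarin, was steady in mine drainage at 10.09, 10.01, 9.99 and 10.06 and spread widely in control at 9.96, 9.36 and 9.01. Control replicate 1 was thus only slightly below the lowest mine drainage array. The rise of 0.60 (standard error 0.19, adjusted p = 0.0367) was 0.85 without control replicate 1 and 0.38 without control replicate 3, and 7 of 17 alternative fits called it. NOP56 and NOP58, the other core proteins of box C/D snoRNPs, differed by 0.17 and 0.13, and SNU13, which completes that core, by 0.43 (adjusted p = 0.25, 0.462 and 0.069). RRP9 (YPR137W), a protein particular to the U3 snoRNP, had 7.54, 7.23, 7.11 and 7.35 against 7.43, 7.32 and 7.18, with equal means of 7.31. NOP10, of the H/ACA snoRNPs that direct pseudouridylation, differed by -0.12, and CBF5, GAR1 and NHP2, its partners, by 0.07, 0.40 and -0.37 without passing.

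Of the 7 exosome subunits 1 rose and none fell, against 14.5% higher over all probesets. RRP42 (YDL111C), of the ring of the exosome core, gave 6.97, 6.82, 6.66 and 6.72 in mine drainage and 6.24, 6.02 and 6.14 in control. The groups were well apart, with a rise of 1.58-fold (0.66, standard error 0.11, adjusted p = 0.00372), and 16 of 17 alternative fits called it. RRP45 (YDR280W), of the same ring, had 8.30, 8.15, 7.78 and 8.04 against 8.05, 8.18 and 8.06, a difference of -0.03 (adjusted p = 0.869). RRP43 and RRP46, also of the ring, differed by -0.10 and 0.09, the cap proteins RRP4 and RRP40 by 0.13 and -0.18, and the nuclear exonuclease gene RRP6 by -0.10. Of the subunits under other names, CSL4, of the cap, fell by 0.52 (adjusted p = 0.00863), and SKI6, MTR3, DIS3 and LRP1 had differences of 0.20, 0.17, 0.18 and -0.30 and did not pass.

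**Figure D3:**
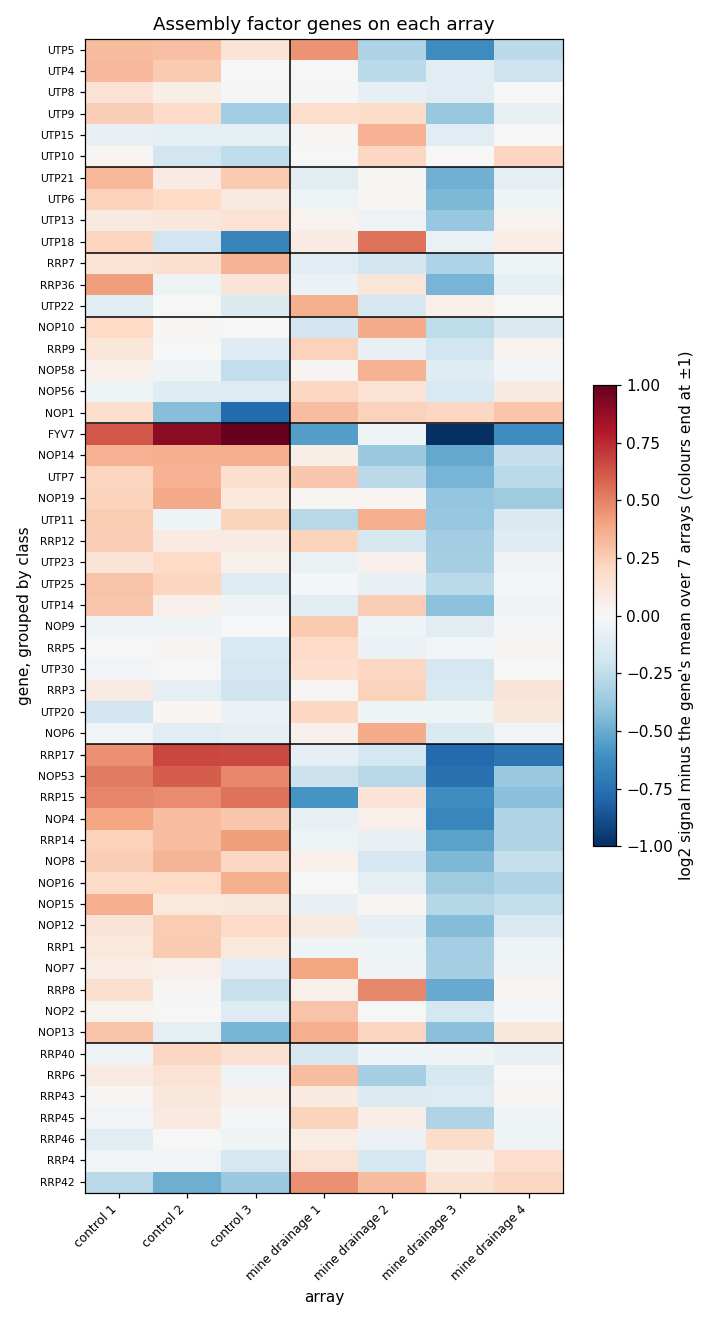
Log2 signal of each of the 54 genes on each array, relative to the gene's own mean over the 7 arrays, with black lines between the classes and between control and mine drainage arrays. Mine drainage replicate 3 is the bluest column, the lowest of the 7 arrays for 37 genes, and the large subunit class holds the broadest block of genes that are red in control and blue in mine drainage.

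Replicate arrays differed in the level of the whole group. The mean over the 54 genes was 7.99, 7.96, 7.64 and 7.85 on mine drainage replicates 1 to 4, and 8.09, 8.04 and 7.96 on control replicates 1 to 3. Mine drainage replicate 3 had the lowest value of the 4 mine drainage arrays for 44 of the 54 genes, and replicate 4 for none. Without replicate 3, 8 genes were lower and 1 higher, against 10.7% and 9.88% of all probesets, and the median difference of the 54 genes stayed negative. Leaving out mine drainage replicate 4 left 7 of the 54 genes lower, against 11% of all probesets. Leaving out control replicates 1, 2 and 3 left 9, 5 and 6 of the 54, against 17.8%, 6.62% and 8.11%. Without control replicate 1 the share of the 54 genes that were lower was slightly below that of all probesets. RRP42 was the single higher gene without any 1 of the mine drainage arrays or of control replicates 2 and 3, and 3 genes were higher without control replicate 1. Over the 14 genes called lower the control arrays had means of 8.31, 8.33 and 8.33, while mine drainage arrays ran from 7.42 to 7.86. Those genes were selected by their calls on the same arrays, so the gap and the close control values follow from the selection.

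The 54 genes varied together. Over the 7 arrays the median Pearson correlation between pairs of these genes was 0.35, and 0.01 between pairs of 5368 genes with 1 probeset each. For deviations from the group means, which hold no difference between media, it was 0.50 and 0.01. These correlations describe 7 arrays that all genes share, and they carry no test. The genes span lengths of 177 bp (NOP10) to 7482 bp (UTP20), and those called lower 456 to 2820 bp. Over the 54 genes the difference had a Spearman correlation of 0.18 with gene length, opposite in sign to the -0.15 over all probesets. The part of RNA length in the calls was not tested beyond the covariate and length fits.

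Assembly factors under other names also had more genes lower than higher. Of 48 measured small subunit factors 11 fell and 4 rose, with a median difference of -0.08. DHR2, an RNA helicase, fell by 0.77, ESF1, of early rRNA processing, by 0.75, and BUD22, of small subunit maturation, by 0.70, while IMP3, a U3 snoRNP protein, rose by 0.73. The partners of Imp3, IMP4 and MPP10, had differences of -0.08 and -0.24. Of 60 measured large subunit factors 12 fell and 2 rose, with a median of -0.07. REI1, of late cytoplasmic maturation, fell by 0.74, SDA1 by 0.72 and MAK16 by 0.66, both of nuclear maturation. SSF1 fell by 0.70 and its close paralog SSF2 by 0.61, and the pair may share probe signal. The shares lower, 22.9% and 20%, compare with 17.1% over all probesets. The large subunit genes under the NOP and RRP names thus had a larger share lower than those under other names, a difference that was not tested.

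**Figure D4:**
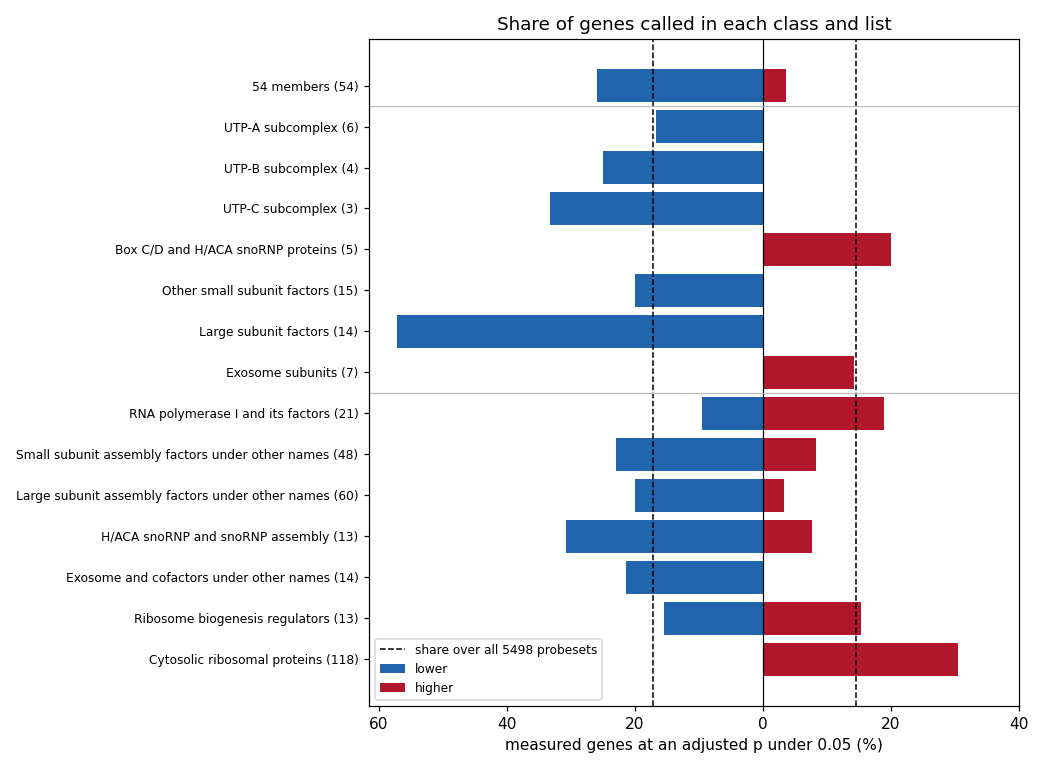
Share of the measured genes called lower (blue, to the left) and higher (red, to the right) at an adjusted p under 0.05 from limma in the 54 genes, their classes and related gene lists, with the number of measured genes in parentheses. Dashed lines mark the shares over all 5498 probesets, 17.1% lower and 14.5% higher. Large subunit factors reach 57.1% lower, and cytosolic ribosomal proteins 30.5% higher with none lower.

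Genes around the assembly pathway were mixed, and their counts are to be read against 17.1% lower and 14.5% higher over all probesets. Of 13 genes of snoRNP assembly and H/ACA proteins 4 fell and 1 rose (30.8% and 7.69%). BCD1, HIT1 and PIH1, which assist in building box C/D snoRNPs, fell by 0.86, 0.75 and 0.69, and SRP40, a nucleolar chaperone, rose by 1.01. Among 14 exosome cofactors and subunits under other names 3 fell (21.4%) and none rose, with SKI3, of cytoplasmic mRNA decay, at -0.55 and AIR1, of nuclear RNA surveillance, at -0.43. Of 21 genes of RNA polymerase I and its factors 4 rose and 2 fell, which is 19% and 9.52%. RRN5, of the upstream activating factor, rose by 1.00, the subunit gene RPA14 by 0.75 and HMO1, a DNA-binding protein of rDNA, by 0.56, while RRN9 fell by 0.64. Of 118 cytosolic ribosomal protein genes, by contrast, 36 rose and none fell, with a median of 0.23. Many of these are near-identical pairs whose probes may share signal, and the difference between the 2 groups was not tested.

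Regulators of the 2 gene groups were called about as often as all probesets, with 2 of 13 higher and 2 lower (15.4% each, against 14.5% and 17.1%). IFH1, a coactivator of ribosomal protein genes, had the widest difference, 0.49, and did not pass (adjusted p = 0.0812). STB3, a repressor that binds upstream of assembly factor genes, fell by 0.41 (adjusted p = 0.0486), with every mine drainage array below every control array. TOD6 and DOT6, related repressors of the same genes, had differences of -0.24 and 0.18, and SFP1, an activator, of 0.16, and none of these passed (adjusted p = 0.551, 0.144 and 0.261). SCH9, a growth-controlling protein kinase, rose by 0.46 and TOR1 by 0.44, and TOR2, the related kinase gene, fell by 0.30.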

How the data were processed

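Per the labels and methods, the authors deposited RMA values on the log2 scale from Affymetrix Yeast Genome 2.0 arrays, computed in Partek Genomics Suite (submitters' processing notes and the study's methods), with quantile normalization over all probesets. The series matrix holds 7 arrays and 10928 probesets. Probesets were named through the platform's annotation and an R64 gene table, which gave 5498 S. cerevisiae probesets. The tables used here hold no sequences, and no genome build is given for the values, so neither sequences nor coordinates are printed. The members and lists were chosen with earlier results of these data known.

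For each gene, the probeset of the highest mean was taken, leaving out identifiers of shared probes. Mine drainage minus control was fitted with limma 3.58.1 in R 4.3.3 (moderated test, two-sided, default settings, 5 residual degrees of freedom), with Benjamini-Hochberg adjustment over 5498 probesets. Lists are described by counts and medians, without set tests. Single values were compared by an exact permutation test over 35 splits, which allows no p under 0.0286. Values on each array are given for members past the threshold (up to 10 in each direction), the widest and narrowest difference of each class, the brightest and dimmest probeset, and FYV7, NOP1, UTP4 and UTP22, and up to 4 genes past the threshold with the widest differences are named from each other list, with SFP1, STB3, TOD6 and DOT6. Members and genes outside this rule (IFH1, SSF2 and the complex partners among them) were named after their values were seen. The labels give both groups replicates 1 to 3, but describe separate cultures. Alternatives were a rerun of the study's ANOVA, other priors and weights, further normalization, a filter on dim probesets and all probesets of a gene. Others were a replicate block, single arrays left out, a length trend, the 3' to 5' covariate and other memberships. The number of arrays limits the precision. Figures were drawn with matplotlib 3.10.9.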

Additional observations from a re-analysis of the deposited data

Results flagged for a closer look

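RRP1 and UTP6 each had 1 mine drainage array far from the other 3 by Dixon's test, among 54 genes tested, and chance flags about 1 group in 20. RRP1 was at 8.36 on mine drainage replicate 3 and at 8.64 to 8.66 on the others, a gap of 0.949 of the range. UTP6 was at 5.44 on the same array and at 5.85 to 5.91 on the others, a gap of 0.858 of the range.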

How the results depend on the processing

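The 14 lower and 2 higher genes became 2 and 1 with the rerun of the study's one-way ANOVA (3.7% and 1.85%, below its 6.69% and 6.58% of all probesets). Array weights gave 23 lower, but their estimation stopped before it converged and they called 33.1% of all probesets lower. A further quantile normalization gave 14 lower and 1 higher, against 15.3% and 15.1% of all probesets. The 3' to 5' covariate gave 0 and 0, and the median difference was then -0.289. With the length trend subtracted, 13 were lower and 3 higher, against 14% and 15.7% of all probesets. The median difference was then -0.083. In that fit UTP21 and UTP4 lost their calls, while RRP1 and UTP10 gained one. At the study's own thresholds, unadjusted p and fold change, the rerun ANOVA gave 5 lower (9.26%, against 7.02% of all probesets) and 1 higher (1.85%, against 5.66%). With the replicate number as a block, 6 were lower and 1 higher, against 9.04% and 7.86% of all probesets. Same-numbered arrays correlated at -0.0651, -0.177 and 0.082 in their deviations from the group means. These values give no sign of pairing by number, but so few arrays cannot exclude it. Leaving out single arrays gave 5 to 17 lower, 1 to 3 higher and a median of -0.206 to -0.082. Those fits called 6.62% to 17.8% of all probesets lower and 5.89% to 15.1% higher. The other planned settings kept both counts within 1.5 times. Among these, the filter on dim probesets, the mean over every probeset and membership by current symbol kept the same genes and values, so their counts could hardly change. With 14 genes added that carry a UTP, NOP or RRP number as a synonym, chosen after the data were seen, 16 of 68 were lower. The number higher stayed at 2, where 17.1% of all probesets were lower and 14.5% higher. The median difference was then -0.118, against -0.148 without the added genes. None of the 16 called genes changed sign in any setting. Members near 0 did: UTP9 was 0.0164 with the length trend subtracted, UTP22 -0.106 and NOP9 -0.0873 with the 3' to 5' covariate, RRP9 0.0579, 0.0231 and 0.0642 after quantile normalization, a median shift and the length trend, and NOP7 0.0208, 0.00647 and 0.0711 with a median shift, the block and the length trend. With single arrays left out, UTP9 ranged from -0.24 to 0.0682, RRP9 from -0.0784 to 0.0622, NOP9 from -0.0267 to 0.0968, NOP7 from -0.136 to 0.106 and RRP45 from -0.109 to 0.0645. The causes were not tested.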

Other observations

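None of the 54 genes overlapped another protein-coding gene in the R64 table. Of 27 measured genes next to the 14 called lower, 7 were lower and 6 higher, where 17.1% and 14.5% of all probesets were. FYV7 lay between PET309, an activator of mitochondrial translation, which fell by 0.48 (adjusted p = 0.00887 from limma), and MEF1, a mitochondrial elongation factor, which rose by 0.53 (adjusted p = 0.00403). NOP53 lay between PXA1, a subunit of a peroxisomal transporter, which fell by 0.51, and KES1, an oxysterol-binding protein, which rose by 0.88. These neighbours were named after their values were seen.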
